A study of Rattus norvegicus with 17 samples.

Results

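A set of 84 genes had a higher mean in rat lungs given bleomycin and BI1015550 than in lungs of both other groups, while the means of those other groups lay close together. The set was taken from 32753 genes in the count table, of which 23083 had a count in any library. Counts were divided by the library total and multiplied by 1000000 to give CPM. A gene was taken when its mean in treated lungs was at least 1 CPM, when the log2 ratio of the treated mean to the control mean and to the bleomycin mean was at least 0.6 each, and when the log2 ratio of bleomycin to control lay within 0.5 of zero. An offset of 0.5 CPM was added to every mean before a ratio was formed. The genes were thus selected on these ratios of group means, which are given as a description, with no test.

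RNA was sequenced in bulk from lung parenchyma of Wistar rats (RjHan:WI) in 17 libraries. Libraries 1 to 6 are controls given NaCl. Libraries 7, 8, 9, 11 and 12 come from the bleomycin group (1 mg per kg), and libraries 13 to 18 from lungs that received BI1015550 (2.5 mg per kg) beside the same dose of bleomycin, called treated here. All 11 libraries of the last 2 groups carry bleomycin, and no group received the compound without it. Age, sex, time point and batch are not in the labels used here, and whether the libraries stand for different animals is not stated either.

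Bleomycin is a cytotoxic antibiotic that breaks DNA and is used to injure rodent lungs, which then inflame and scar. BI1015550, also known as nerandomilast, inhibits PDE4B, a phosphodiesterase that degrades cyclic AMP. Cyclic AMP is a second messenger that activates protein kinase A, which phosphorylates transcription factors of the CREB family, and a rise in cyclic AMP restrains both leukocytes and fibroblasts.

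Genes carry only Ensembl IDs in the deposited table, with no names beside them. The reference gene table (assembly GRCr8) lists no Ensembl IDs, and 0 of the 32753 IDs could be looked up in it. Names, functions, positions, promoter sequences and cell types of the 84 genes are therefore not given, and the lung label could not be checked against marker genes. In bulk lung, a higher level per cell and a larger number of cells that hold an RNA cannot be told apart. By a fixed rule 2 genes are given by ID, and others are referred to by their rank among the 84 by mean treated CPM. CPM is not corrected for gene length, so these ranks order reads and not transcripts.

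Total counts ran from 15919392 to 18462105 in controls, from 15207791 to 16192209 with bleomycin and from 14609389 to 15889091 in treated lungs, so every treated library was shallower than every control. In the edgeR model fitted to the 15000 genes that passed its expression filter, 38.3% of genes were called changed between bleomycin and control lungs in either direction. Of the 84 genes, 83 passed that filter. The gene at rank 74 did not, with 4.22 CPM in treated library 13, 4.07 CPM in treated library 17 and at most 1.76 CPM in any other library.

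The 84 genes cover a wide range of levels. Their treated means ran from 1.07 to 628 CPM with a median of 6.02 CPM, against a median of 2.49 CPM in controls and 2.44 CPM with bleomycin. In treated lungs 21 genes averaged under 2 CPM, 31 averaged 2 to 10 CPM, 12 averaged 10 to 50 CPM and 20 averaged 50 CPM or more. The 5 genes with the highest treated means held 44.6% of the summed treated CPM of the set.

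The median log2 ratio of the set was 1.05 for treated to control, or 2.07-fold, with a middle range over genes (quartiles) of 0.84 to 1.27. For treated to bleomycin it was 0.96, or 1.94-fold, with quartiles of 0.73 and 1.28. In 34 genes both ratios were at least 1, and in 5 genes both were at least 2. The bleomycin mean lay above the control mean in 58 genes and below it in 26, with a median log2 ratio of 0.09. Just inside the threshold lay a gene with ratios of 0.60 to control and 0.62 to bleomycin and another with 0.71 and 0.60. Just outside lay genes with 0.596 and 0.646, and with 0.592 and 0.911. Without the limit on bleomycin against control, 117 genes passed, of which 19 were left out as higher and 14 as lower with bleomycin.

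**Figure D1:**
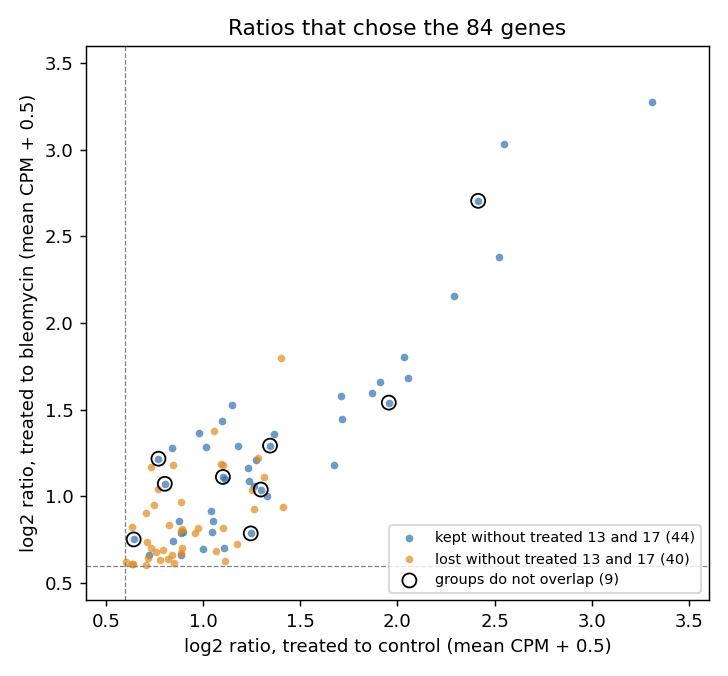
Log2 ratio of the treated mean to the control mean (horizontal axis) and to the bleomycin mean (vertical axis) for the 84 genes, each a point, with dashed lines at the threshold of 0.6. The 40 genes that no longer met the rule without treated libraries 13 and 17 lie mostly near the thresholds, and the 9 circled genes, whose treated libraries all lie above all others, are spread over the range.

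The mirrored rule, with treated means lower by the same ratios and at least 1 CPM in both other groups, found 36 genes. When treated libraries 13 and 17 were left out, 27 of these 36 genes still met it, and in 0 of the 36 did every treated library lie below every other library.

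The 6 treated libraries did not carry the difference evenly. For each library, the log2 ratio of its CPM to the control mean was taken for the 84 genes. The median over genes was 1.40 in treated library 13 and 1.37 in treated library 17. It was 0.90 in library 15, 0.81 in library 18, 0.75 in library 14 and 0.45 in library 16. Treated libraries 13 and 17 thus stood highest and library 16 lowest, and no treated library lay within the range of the control or bleomycin medians, a separation that the choice of genes favours.

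Control medians ran from -0.28 to 0.32 and bleomycin medians from -0.25 to 0.24. Control library 5 stood highest among controls at 0.32, and bleomycin libraries 12 at 0.24 and 7 at 0.15 stood highest in their group. The median of the same ratio over all 15000 tested genes was between -0.10 and 0.05 in every library.

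**Figure D2:**
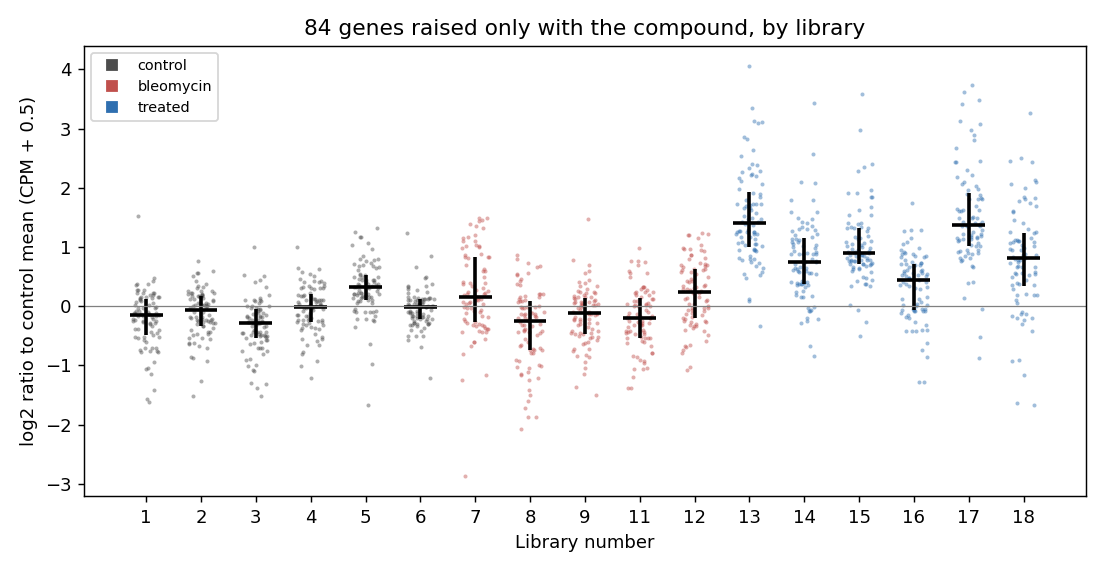
Log2 ratio of CPM to the control mean (vertical axis) for the 84 genes in each library (horizontal axis), with a point per gene, a horizontal bar at the median and a vertical bar over the quartiles. Treated libraries 13 and 17 have medians of 1.40 and 1.37, treated library 16 has 0.45, and control library 5 and bleomycin libraries 7 and 12 lie above the rest of their groups.

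Summed over the 84 genes, controls held 1503 ± 335 CPM (SD, n = 6), bleomycin lungs 1611 ± 442 CPM (SD, n = 5) and treated lungs 3212 ± 1232 CPM (SD, n = 6). The treated sums were 4388 CPM in library 13, 3132 in library 14, 2906 in library 15, 1709 in library 16, 4910 in library 17 and 2229 in library 18. The control sums were 1259, 1491, 1252, 1373, 2152 and 1488 CPM for libraries 1 to 6. The bleomycin sums were 2322 CPM in library 7, 1331 in library 8, 1467 in library 9, 1206 in library 11 and 1731 in library 12. The groups overlapped on this sum, since treated library 16 lay below control library 5 and below bleomycin libraries 7 and 12, and treated library 18 lay below bleomycin library 7. The gene with the highest level alone made up 19.5% of the summed treated means.

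Gene by gene, the highest treated value was in library 13 for 35 genes and in library 17 for 33, together 81.0% of the set. These libraries were also the highest pair in 43 genes. The lowest treated value was in library 16 for 52 genes. Treated library 13 lay above the means of both other groups in 83 of the 84 genes, libraries 15 and 17 in 81 each, library 14 in 71, library 18 in 69 and library 16 in 54. All 6 treated libraries lay above both means in 41 genes. The choice of genes favours such counts, and no shares over all tested genes are given for them.

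Every treated library lay above every control and every bleomycin library in 9 of the 84 genes (10.7%), beside 20 of all 15000 tested genes (0.133%). The rule selects on the same values, so nothing is read from the difference between these shares. The other 11 of the 20 genes were not in the set, 10 because a ratio lay under 0.6 and 1 because bleomycin and control differed. Taken alone, separation from bleomycin was found in 15 of the 84 genes (8.15% of all tested genes) and separation from control in 22 (2.23%). In another 13 genes treated library 16 was the only treated library that reached into the range of the other groups. No share over all tested genes is given for this count, and nothing is read from it.

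The 9 genes that separated fully were ranks 14, 22, 33, 37, 48, 54, 55, 57 and 76. Some of them were even across treated lungs. Rank 54 lay between 2.81 and 3.66 CPM in treated lungs, between 0.848 and 1.19 CPM in controls and between 1.297 and 2.21 CPM with bleomycin. Rank 76 lay between 1.22 and 1.57 CPM in treated lungs, with at most 1.07 CPM in controls and 0.695 CPM with bleomycin. Its separation from control is narrow at this low level, with 1.22 CPM in treated library 14 against 1.07 CPM in control library 4. Rank 48 lay between 3.95 and 5.27 CPM in treated lungs, and here library 16 was the highest. Rank 14 lay between 55.1 and 85.7 CPM in treated lungs, against 35.9 to 47.9 CPM in controls and 24.1 to 39.7 CPM with bleomycin. In ranks 14, 48, 54 and 76 the smaller of the 2 log2 ratios was 0.64 to 0.80, with little spread between treated lungs. In ranks 22, 37 and 55 it was 1.29 to 2.42, with library 16 nearest to the other groups. Despite these ratios, ranks 22 and 55 separated only narrowly. Rank 22 held 17.8 CPM in treated library 16 against 16.9 CPM in bleomycin library 7. Rank 55 held 1.367 CPM in treated library 16 against 1.297 CPM in bleomycin library 8. Full separation depended on the scaling: with CPM from TMM-scaled library sizes it held for 7 genes, all among these 9.

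By the fixed rule the gene ENSRNOG00000026177 (rank 37) is named as the fully separated gene with the largest ratios. Its treated values were 12.2 CPM in library 13, 3.95 in library 14, 7.32 in library 15, 2.15 in library 16, 11.04 in library 17 and 7.55 in library 18. Controls 1 to 6 held 1.13, 1.08, 0.528, 0.440, 1.82 and 0.848 CPM. Bleomycin libraries 7, 8, 9, 11 and 12 held 0.628, 0.185, 0.263, 0.686 and 1.77 CPM. Treated library 16 exceeded control library 5 and bleomycin library 12 by a small margin that rests on 33 reads against 30 and 28, while the other treated libraries stood well clear.

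The mean of ENSRNOG00000026177 was 7.37 ± 3.90 CPM in treated lungs (SD, n = 6), 0.975 ± 0.50 CPM in controls (SD, n = 6) and 0.706 ± 0.633 CPM with bleomycin (SD, n = 5), log2 ratios of 2.42 to control and 2.71 to bleomycin. Without libraries 13 and 17 the ratios were 1.96 and 2.25. Leaving out any 1 treated library gave 2.23 to 2.60 to control and 2.52 to 2.89 to bleomycin.

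The other gene given by ID, ENSRNOG00000007081 (rank 1), had the highest treated mean among the genes that depended on libraries 13 and 17. Its treated values were 942 CPM in library 13, 649 in library 14, 601 in library 15, 261 in library 16, 985 in library 17 and 329 in library 18. Controls 1 to 6 held 298, 408, 265, 306, 510 and 313 CPM, and bleomycin libraries 7, 8, 9, 11 and 12 held 646, 280, 391, 242 and 428 CPM. The groups overlapped widely: treated library 16 lay below every control, and bleomycin library 7 held 646 CPM beside 649 CPM in treated library 14.

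The treated mean of ENSRNOG00000007081 was 628 ± 301 CPM (SD, n = 6), against 350.1 ± 91.7 CPM in controls (SD, n = 6) and 397 ± 159 CPM with bleomycin (SD, n = 5). Its log2 ratios of 0.84 to control and 0.66 to bleomycin fell to 0.39 and 0.21 without libraries 13 and 17. Leaving out library 13 alone gave 0.69 and 0.51 and library 17 alone 0.67 and 0.48, so either removed the gene from the set. The edgeR model called this gene higher neither against control nor against bleomycin. Here the depth was not limiting, with 3877 to 14540 reads per library.

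Rank 16, singled out after its values were seen, had the largest ratios of the set, 3.31 to control and 3.28 to bleomycin. Its treated values were 108 CPM in library 13, 70.1 in library 14, 51.1 in library 15, 9.89 in library 16, 86.6 in library 17 and 62.4 in library 18. Controls lay between 3.93 and 7.64 CPM and bleomycin libraries between 1.98 and 10.3 CPM. In 5 treated libraries the gene stood several times above every other library, and in treated library 16 it lay within the bleomycin range, below bleomycin library 12. Without libraries 13 and 17 the ratio to bleomycin was 2.86.

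**Figure D3:**
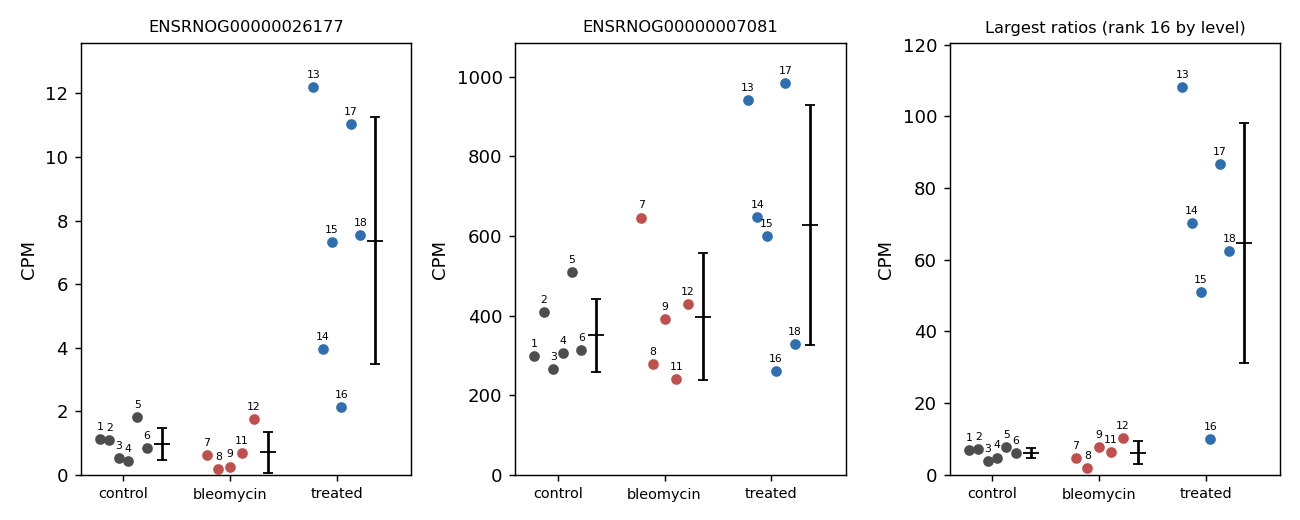
CPM (vertical axis, from 0) of 3 genes in each library, with points labelled by library number and the mean with its SD beside each group. ENSRNOG00000026177 and the gene at rank 16 are high in all treated libraries but library 16, and ENSRNOG00000007081 overlaps between groups, where treated libraries 13 and 17 are highest at 942 and 985 CPM.

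The 5 genes with both ratios of at least 2 (ranks 16, 30, 32, 37 and 49) shared their lowest treated library and their highest control. In each of them treated library 16 was the lowest treated library, control library 5 the highest control, and bleomycin library 7 or 12 the highest bleomycin library. Rank 30, for example, held 35.7 CPM in treated library 17 and 3.97 CPM in treated library 16, and 5.64 CPM in control library 5 against 0.704 to 3.14 CPM in the other controls. Rank 32 held 22.4 CPM in treated library 17, 3.06 CPM in treated library 16 and 4.14 CPM in bleomycin library 7.

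Reliance on treated libraries 13 and 17 was measured by applying the rule without them. Without library 13 it found 70 genes, 65 of them from the 84. Without library 17 it found 73 genes, 67 of them from the 84. Without any 1 of the other 4 treated libraries between 77 and 81 of the 84 genes were kept, so each of libraries 13 and 17 carried more of the set than any other treated library.

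Without both libraries the rule found 49 genes, of which 44 came from the 84 (52.4%) and 40 of the 84 were lost. Of the 40 lost genes, 36 still had a treated mean above both other means. Their median log2 ratio went from 0.87 to 0.54 against control and from 0.81 to 0.47 against bleomycin. In the 44 kept genes the medians went from 1.21 to 0.97 and from 1.19 to 1.00. Lost and kept genes had similar treated levels, with medians of 5.85 and 6.02 CPM. All 9 genes that separated fully were among the kept.

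The bleomycin libraries mattered as well, since their mean enters every ratio to bleomycin. Leaving out bleomycin library 8 kept 65 of the 84 genes and leaving out library 11 kept 66, as few as leaving out treated library 13 or 17. Leaving out any 1 control kept 74 to 80. The set held 31 genes that met the rule whichever 1 of the 17 libraries was left out, and 20 that also met it without libraries 13 and 17 together.

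**Figure D4:**
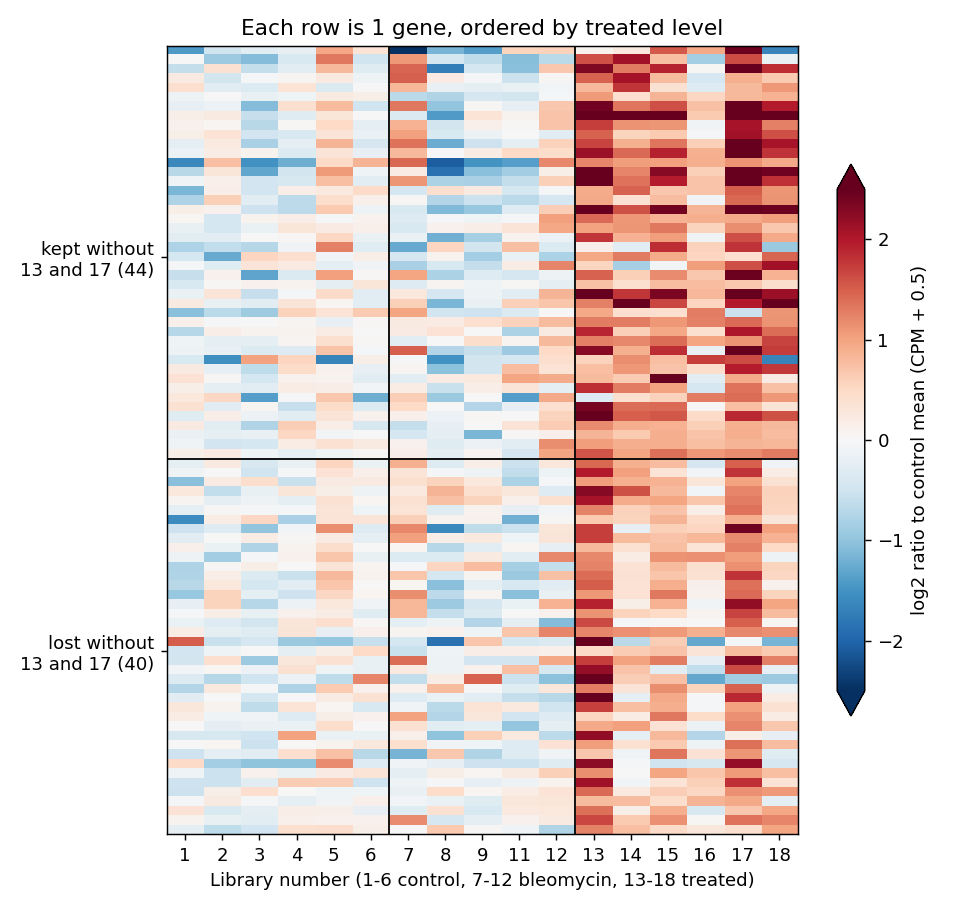
Log2 ratio of CPM to the control mean (colour, limited to 2.5 in either direction) for each of the 84 genes (rows) in each library (columns). The upper 44 genes met the rule without treated libraries 13 and 17 and the lower 40 did not, and in both blocks columns 13 and 17 are the darkest and column 16 the palest of the treated libraries.

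In 5 genes a single treated library held at least 50% of the summed treated CPM, library 13 in 4 of them and library 15 in 1. Rank 53 was the most uneven, with 15.2 CPM in treated library 13, or 76.4% of the sum, and 0.130 CPM in treated library 16. Rank 40 held 24.9 CPM in treated library 13 and 11.2 CPM in control library 1. Rank 64 held 8.56 CPM in treated library 15 and at most 0.998 CPM in any other library. For these genes the treated mean describes mainly 1 library.

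Each library was also left out in turn, genes were chosen without it, and its values, which that choice did not use, were read. They were read as ratios to the control and bleomycin means, which for a treated library are the same means that chose the genes, so the choice partly favours the shares given here. Treated library 13, left out, had a log2 ratio of at least 0.6 to both other means in 57 of 70 genes (81.4%), against 2.67% of all tested genes. Treated library 17 did so in 58 of 73 genes (79.5%) and treated library 15 in 52 of 87 (59.8%). Treated library 18 reached both ratios in 43 of 97 genes (44.3%), library 14 in 38 of 96 (39.6%) and library 16 in 18 of 104 (17.3%). All tested genes did so in 0.633% to 2.67% of cases in the treated libraries. The median ratio in the held-out treated library ran from 0.31 to 1.35 against control and from 0.30 to 1.29 against bleomycin, lowest in library 16 and highest in library 17.

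The same reading of control and bleomycin libraries gave high shares in some of them. Bleomycin library 7, left out, reached both ratios in 43 of 92 genes (46.7%), with medians of 0.54 to control and 0.54 to the other bleomycin libraries, beside 5.37% of all tested genes. Bleomycin library 12 did so in 31 of 92 genes (33.7%), beside 2.69% of all tested genes, and control library 5 in 19 of 84 (22.6%), beside 2.18%. The other bleomycin libraries lay between 9.76% and 11.8% and the other controls between 2.44% and 6.02%, beside 0.493% to 1.55% of all tested genes in these libraries. The share of bleomycin library 7 was thus near those of treated libraries 14 and 18, and both it and library 12 exceeded treated library 16. The shares of all tested genes were unlike, however. They were 5.37% and 2.69% in bleomycin libraries 7 and 12, against 0.94%, 0.993% and 0.633% in treated libraries 14, 18 and 16. Relative to all tested genes, bleomycin libraries 7 and 12 therefore stood out less than these treated libraries. The genes chosen differ from library to library, and a left-out bleomycin library is read against a mean that no longer holds its own values. On the 84 genes themselves, chosen with it, bleomycin library 7 had the median of 0.15 given above. The difference from both other groups holds for group means and not for every library.

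**Figure D5:**
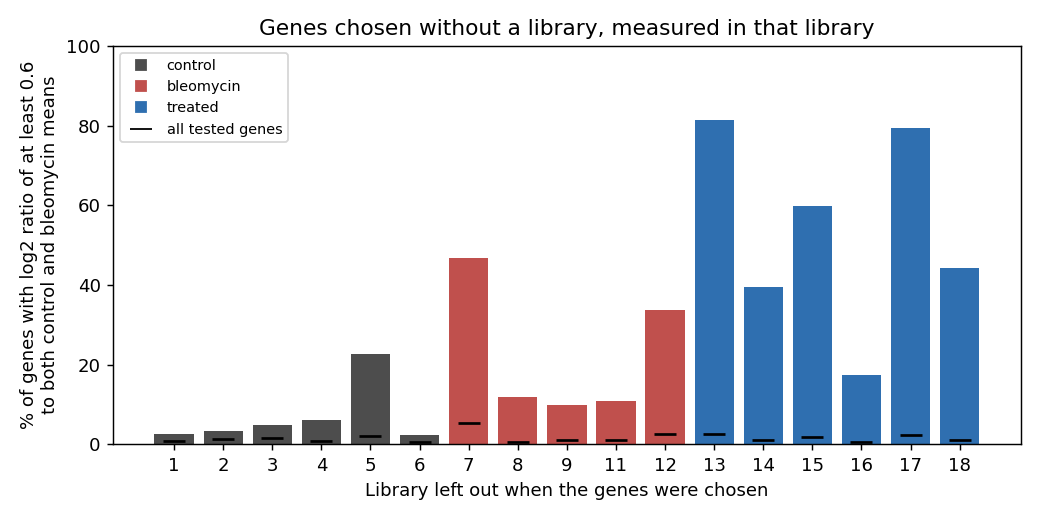
Share of genes with a log2 ratio of at least 0.6 to both the control and the bleomycin mean (vertical axis, %) in the library that was left out when the genes were chosen (horizontal axis), with a dash for all 15000 tested genes. Treated libraries 13 and 17 reach 81.4% and 79.5%, bleomycin library 7 reaches 46.7% and treated library 16 reaches 17.3%.

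The genes also varied together inside groups. Log2 levels of the 83 tested genes were set relative to their own group mean, and each gene was correlated with the summed standardised profile of the other genes of the set. Over the 11 control and bleomycin libraries the median Pearson correlation was 0.46, and 36 genes (43.4%) were above 0.5. Among the 14917 other tested genes the median was 0.01 and 13.6% were above 0.5. Within the 6 controls alone the median was 0.53, and 53.0% of the genes were above 0.5, beside 16.1% of the other tested genes. Within the 5 bleomycin libraries the median was 0.51, and 50.6% were above 0.5, beside 27.5% of the others. Within the 6 treated libraries the median was 0.78, and 75.9% were above 0.5, beside 21.3%. There the rule favours genes that share high libraries. These correlations are a description: the genes share libraries and depth and are not independent.

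The shared order inside the control and bleomycin groups showed mainly in 3 libraries. Control library 5 was the highest control in 41 of the 84 genes. Bleomycin library 7 was the highest bleomycin library in 33 and library 12 in 25. In 58 of the 84 genes the highest of the 11 control and bleomycin libraries was 1 of these 3. No shares over all tested genes are given for these counts. The same 3 libraries also stood out over all tested genes when left out. There bleomycin libraries 7 and 12 reached both ratios in 5.37% and 2.69% and control library 5 in 2.18%, the highest shares in their groups.

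The spread between libraries was wide in all groups. The median coefficient of variation of the 84 genes was 38.6% in controls, 49.2% with bleomycin and 49.3% in treated lungs. Over all tested genes the medians were 15.1%, 17.3% and 13.2%. The median spread of the set was therefore larger also in the 2 groups in which the rule did not ask for a high mean. Expression level was not matched in this comparison.

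In the edgeR quasi-likelihood fit to all 17 libraries, with Benjamini-Hochberg adjustment over 15000 genes, 49 of the 83 tested genes were called higher in treated than in bleomycin lungs at an adjusted p below 0.05, beside 12.1% of all tested genes. Against control 50 were called higher, beside 3.92%. Both calls were made for 44 genes, beside 0.533% of all genes, and neither for 28. No gene of the set was called lower in either. The rule used these contrasts, so the counts are read as a description of how the rule and the test overlap. The median log2 fold change from this fit was 1.12 against bleomycin with a median SE of 0.39, and 1.20 against control with a median SE of 0.37. Over all tested genes the median fold changes were 0.00 in both contrasts and the median SEs 0.14 and 0.13.

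Of the 44 genes with both calls, 31 met the rule without treated libraries 13 and 17 and 13 did not. All 9 fully separated genes had both calls. When the model was fitted without libraries 13 and 17, both calls were made for 15 of the genes, and without library 13 or 17 alone for 24 and 21. It was 29 without control library 6 and 27 without bleomycin library 9. Shares of all tested genes with both calls are not given for these fits. Calls over all genes fell as well without libraries 13 and 17, from 4163 to 1929 for treated against bleomycin and from 1259 to 849 for treated against control. Between bleomycin and control lungs 2 genes of the set were called higher and 1 lower, with 80 not called, beside the 38.3% of all tested genes given above; the rule asked for a small ratio there. A gene not called there may still differ, as the median SE of that contrast was 0.41 for the set.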

How the data were processed

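The file deposited by the authors holds raw counts, whole numbers per gene, for 17 libraries of lung parenchyma RNA, and its columns were mapped to samples by name. The submitters' processing notes list STAR 2.5.2 and 2.5.2b, featureCounts 1.5.1 and RSEM 1.3.0. The build list names Rnor_6.0 and human builds. Which tool made the counts, the annotation release and the strand setting are not given in these sources, so single values of overlapping or near-identical genes are uncertain. Libraries were made with a TruSeq mRNA kit, per the labels' protocols.

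CPM was computed from column sums with Python 3.11.15 and pandas 2.3.3. Tests across genes used R 4.3.3 and edgeR 4.0.16 (filterByExpr, TMM, quasi-likelihood F test, 3 groups, all libraries). The SE was the absolute log2 fold change divided by the square root of F. DESeq2 1.42.0, limma 3.58.1 (voom with quality weights), other offsets, scalings and thresholds, and leaving out libraries were tried. The test was run on simulated data with known changes.

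The genes and lists were chosen with earlier results of these data known. The rule for naming genes took, in the absence of symbols, the fully separated gene with the largest smaller ratio and the gene with the highest treated mean among those lost without treated libraries 13 and 17. Gene lists, marker lists and promoter motifs needed names and were not run. P-values would measure only the spread between libraries, which may be technical. Library numbers run on from group to group, so any effect of that order cannot be told apart from group.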

Additional observations from a re-analysis of the deposited data

Results flagged for a closer look

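Among 12 groups of library values examined (the median ratio and the summed CPM of the 84 genes, and the CPM of the 2 genes given by ID, in each of the 3 groups), 1 had a library that stood apart. The summed CPM of the 84 genes was 2152 in control library 5, against 1252 to 1491 CPM in the remaining controls, so that the gap took up 0.735 of the whole range, above Dixon's limit of 0.625 for 6 values. Chance flags about 1 in 20 groups, and these groups share genes and libraries.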

How the results depend on the processing

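The rule found 84 genes, and 70 to 104 when 1 library was left out. It found 49 without treated libraries 13 and 17, 48 with a log2 ratio of at least 0.8 and 47 with a treated mean of at least 5 CPM. With CPM from TMM-scaled library sizes it found 75 genes, 74 of them shared, and with group medians 98, of which 64 were shared. The 9 fully separated genes became 7 with TMM-scaled library sizes and 4 with a treated mean of at least 5 CPM. When the set was chosen anew without 1 library, 7 to 23 of its genes separated fully. Without treated library 16 there were 23, which held all 9. Without bleomycin library 12 there were 18, which held 7 of the 9. With 1 library fewer, full separation is easier for any gene to reach. No shares over all tested genes are given for these counts. At 40% in place of 50% of the treated sum, 9 genes in place of 5 were carried by a single library. Of the 84 genes, 44 had both edgeR calls, 15 without libraries 13 and 17, and 21 to 50 when 1 library was left out. Both calls were made for 52 with DESeq2 and for 37 with limma voom. Shares of all tested genes with both calls are not given for these alternatives, and nothing is read from the counts. Over all genes, treated against bleomycin gave 4163 calls, 1929 without libraries 13 and 17 and 3126 to 4611 without 1 library. Treated against control gave 1259, 2546 with limma voom and 794 to 1573 without 1 library, the lowest counts being 794, 825 and 821 when control library 2, control library 3 or treated library 15 was left out. Bleomycin against control gave 5738 and 4894 to 6359. Counts moved in both directions when a library was left out, and the cause was not tested. With TMM-scaled CPM, an alternative added after the data were seen, the share reached by held-out bleomycin library 7 was 47.6% and that of treated library 16 was 14.1%. Shares of all tested genes under this scaling are not given. Neither gene given by ID changed the sign of a ratio under the alternatives run. No paired analysis was possible because the labels give no pairing. The test has low counts to work with in the 21 genes under 2 CPM.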
